A study of Mus musculus with 12 samples.

Results

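The genes described are the expressed solute carrier transporters of the mouse large intestine. They are the 199 genes whose symbol begins with Slc and a digit, without the Slco genes and pseudogenes, that reached 1 RPKM (reads per kilobase of gene, scaled to the library's read total) in at least 2 of 6 libraries of unsorted crypt epithelium. They make up 55.6% of the 358 Slc genes in a table of 28793 genes, and fall into 45 numbered families. The members were chosen by their RPKM in the unsorted libraries, so those levels are given as a description. The filter of the unsorted tests is the same as this rule, so all 199 members entered them. The 3 members just inside the limit, by their second highest unsorted library, were Slc2a5 (1.01 RPKM), Slc38a9 (1.01) and Slc22a15 (1.06). Just outside it were Slc7a8 (0.998), Slc26a1 (0.978) and Slc43a1 (0.958). A limit of 0.5 RPKM would have given 223 members and a limit of 2 would have given 160.

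All 12 libraries came from C57BL/6 mice aged 3 months. The unsorted crypt epithelial cells were taken from mTert heterozygous mice (generation 0), mTert null mice of generation 4 (null G4) and generation 4 mice labelled mTert reactivated, with 2 libraries in each group. GFP-sorted crypt cells, labelled stem/progenitor cells, came from heterozygous mice and from null mice of generation 3 (null G3), with 3 libraries in each. mTert encodes the catalytic subunit of telomerase, and mice without it lose telomere sequence over successive generations. The labels call the libraries biological replicates but do not tie them to separate animals, so p-values measure the spread between libraries. They name neither the gene that drives GFP nor the means of reactivation.

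Solute carriers are membrane proteins that move sugars, amino acids, ions, vitamins, nucleosides, metals and organic acids, either down a gradient or by coupling one solute to another, without splitting ATP themselves. In the colon the surface cells absorb sodium, chloride, water and the short-chain fatty acids made by bacteria, while crypt cells secrete chloride. Carriers of the inner mitochondrial membrane and of the Golgi serve every cell, the first by exchanging nucleotides and metabolites and the second by bringing sugar nucleotides to the enzymes that build glycoproteins such as mucin.

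Classes were set by family number, with exceptions for single genes, so a class does not show what each member carries. Mitochondrial carriers were the largest class, with 36 members, followed by carriers of amino acids and peptides (25), of iron, zinc, copper and heme (23), and of nucleotide sugars and acetyl-CoA (23). Acid-base, chloride and sodium carriers numbered 17, carriers of sugars and polyols 16, and those of organic ions, bile acids and urea 15. Smaller classes moved vitamins and nucleosides (12), mono- and dicarboxylates and sulfate (10), fatty acids and choline (7), phosphate, calcium, magnesium and iodide (7), and neurotransmitters, taurine and creatine (4). The last 4 members carry a Slc symbol without being carriers. Slc9a3r1 and Slc9a3r2 are scaffold proteins of the brush border, and Slc7a6os and Slc4a1ap are named after a neighbour or a partner.

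Tert was listed at 0.459 and 0.251 RPKM in the unsorted heterozygous libraries and at 0.00778 and 0.0377 in null G4. The libraries labelled reactivated held 0.0171 and 0.0311 RPKM, within the null G4 range, and these groups are called by their labels below. In sorted cells Tert was at 0.0424, 0.0583 and 0.169 RPKM in heterozygous libraries and at 0, 0.0787 and 0.00131 in those labelled null G3, so the groups overlapped. The steps of the RPKM values implied depths at which, in the unsorted libraries, 1 RPKM over the median member's exon length of 4642 bases is 347 to 477 reads. Mitochondrial ribosomal RNA took 10.8% to 27.3% of summed RPKM in unsorted and 38.7% to 71.9% in sorted libraries. The 6 stem cell markers of the Lgr5 type summed to 39.7 to 56.3 RPKM in unsorted libraries and to 36.1 to 57.7 in 5 of the 6 sorted ones. Within that sum, Lgr5 was at 0.453 to 0.928 RPKM in unsorted libraries and at 3.4 to 4.74 in those 5. Ascl2 was also higher in the 5, at 5.07 to 12.8 against 2.25 to 3.31. Rgmb and Cdca7 were lower in them, at 7.11 to 10.2 against 12.5 to 15.7 and 5.72 to 8.13 against 10.3 to 17.8. Axin2 and Smoc2 overlapped. Immune markers summed to at most 4.83 RPKM and stromal markers to at most 2.91 in any library. Transcripts of Y-linked genes were present in both unsorted heterozygous libraries, in neither null G4 library and in replicate 2 of the reactivated pair. Of the sorted libraries they were present in replicate 2 of null G3 alone. Sex and genotype therefore cannot be told apart in the null G4 comparison. The sorted and unsorted libraries appear to have been normalized separately, so levels are set side by side between them without a test.

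Upstream sequence is shown for 3 members picked by their results in the null G4 comparison. Slc28a3, a nucleoside carrier, had the largest estimate, and Slc5a8, a sodium-coupled carrier of short-chain fatty acids, was the most abundant member that rose. Slc37a2, a sugar-phosphate carrier, had the lowest estimate and did not pass. Each run holds the 250 bases before the RefSeq start on GRCm38.p6 (mm10), written 5′ to 3′ on the gene's own strand, at chr13:58610878-58611127 (minus strand), chr10:88885742-88885991 (plus strand) and chr9:37255739-37255988 (minus strand) in that order. Capitals mark a match, on either strand, to the TEAD motif GGAATG in Slc28a3 or to the AP-1 motif TGANTCA in Slc37a2.
Slc28a3: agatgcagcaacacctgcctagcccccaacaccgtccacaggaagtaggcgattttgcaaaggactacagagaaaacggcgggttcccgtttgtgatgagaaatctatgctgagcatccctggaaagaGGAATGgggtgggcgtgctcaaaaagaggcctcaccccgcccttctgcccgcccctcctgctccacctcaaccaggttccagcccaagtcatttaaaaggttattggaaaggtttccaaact
Slc5a8: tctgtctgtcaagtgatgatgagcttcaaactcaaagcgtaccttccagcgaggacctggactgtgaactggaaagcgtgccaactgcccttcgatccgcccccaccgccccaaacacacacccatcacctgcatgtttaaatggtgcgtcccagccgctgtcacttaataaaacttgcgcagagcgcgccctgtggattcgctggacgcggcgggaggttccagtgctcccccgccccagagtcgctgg
Slc37a2: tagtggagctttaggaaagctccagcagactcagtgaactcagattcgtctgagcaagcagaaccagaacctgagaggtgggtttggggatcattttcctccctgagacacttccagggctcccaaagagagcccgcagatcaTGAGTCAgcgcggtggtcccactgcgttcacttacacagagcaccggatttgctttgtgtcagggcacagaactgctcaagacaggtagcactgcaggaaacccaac
The search covered 300 bases (250 before and 50 after the start) for these motifs and for the STAT motif TTCNNNGAA on both strands, and 154 members had an entry. The TEAD motif occurred in 16.6% of the members' 205 starts and in 14.7% of all 32851 starts in the RefSeq table. AP-1 matches were in 5.85% against 7.81%, and STAT matches in 5.37% against 8.3%. Of the 12 members that rose in null G4, 9 had an entry, with 10 starts. Slc28a3 held the match to TEAD, and no start of the 9 matched the other motifs. A match is a description of the letters, and no match says nothing of the factor.

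The most abundant member was Slc25a5, the adenine nucleotide translocator that exchanges ADP for ATP across the inner mitochondrial membrane, with a mean of 315 RPKM over the unsorted libraries. The next were Slc6a14, an apical carrier of neutral and cationic amino acids, at 99.6 RPKM, Slc12a2, the basolateral sodium-potassium-chloride cotransporter that loads crypt cells with chloride, at 67.2, and Slc44a4, which carries choline and thiamine derivatives, at 64.8. The mean was 10 RPKM or more for 61 members, 2 to 10 for 90 and under 2 for 48. At 1 RPKM, 168 members were detected in every unsorted library, and 10 members in exactly 2. Slc25a5 was also the first of the members by mean level in sorted heterozygous cells, followed by Slc12a2 and by Slc35a1, the Golgi carrier of CMP-sialic acid. Slc6a14 ranked 2 in unsorted heterozygous crypts and 16 in sorted heterozygous cells, and Slc5a8 ranked 16 and 43, while Slc31a1 ranked 60 and 10.

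The first comparison was null G4 against heterozygous crypts. By limma on log2(RPKM + 1), 12 of the 199 members rose (6.03%) and 0 fell at an adjusted p under 0.05. Among all 11464 genes tested, 4.97% rose and 0.576% fell, so the share of members that rose was near the background. The median difference was 0.26 over the members and 0.36 over all genes tested. Both null G4 libraries lay above both heterozygous ones for 125 members (62.8%), where the background was 74.7%, and below both for 22 (11.1%), where it was 6.5%. At an unadjusted p under 0.05, 62 members were higher and 8 were lower, against 41.8% and 2.39% of all genes. Scaling each library to the same median moved the median of all genes to 0.0024 and that of the members to -0.096, so a positive estimate below holds against the deposited scale, and 78 of the 199 members lay above the all-gene median on either scale.

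The number of members that rose changed when 1 library was left out. It was 4 without heterozygous replicate 1, when 5 others fell, and 7 without heterozygous replicate 2. It was 3 and 2 without null G4 replicates 1 and 2. Without either library labelled reactivated, which enter only through the shared estimate of spread, it was 66 and 65, with 9 lower in each case. It was 3 (2 lower) with quantile normalization, 2 (5 lower) with median scaling, 2 with a term for sex and 0 with no filter on low values. Over all 14 alternatives, Slc28a3 and Slc5a9 passed under 12, Slc45a3 under 9 and each of the other 9 members under 4 to 8. Slc28a3 and Slc5a3 were the members that passed with the term for sex, which rests on the reactivated pair. The number of all genes at an unadjusted p under 0.05 by limma fell without each heterozygous or null G4 library. It grew without each library labelled reactivated, so these changes were not particular to the members. That share of all genes was 44.2% on the deposited scale, 24.2% with quantile normalization, 28.2% with median scaling and 10.6% with the term for sex. Over the members it was 35.2%, 27.6%, 30.7% and 18.6%.

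**Figure D1:**
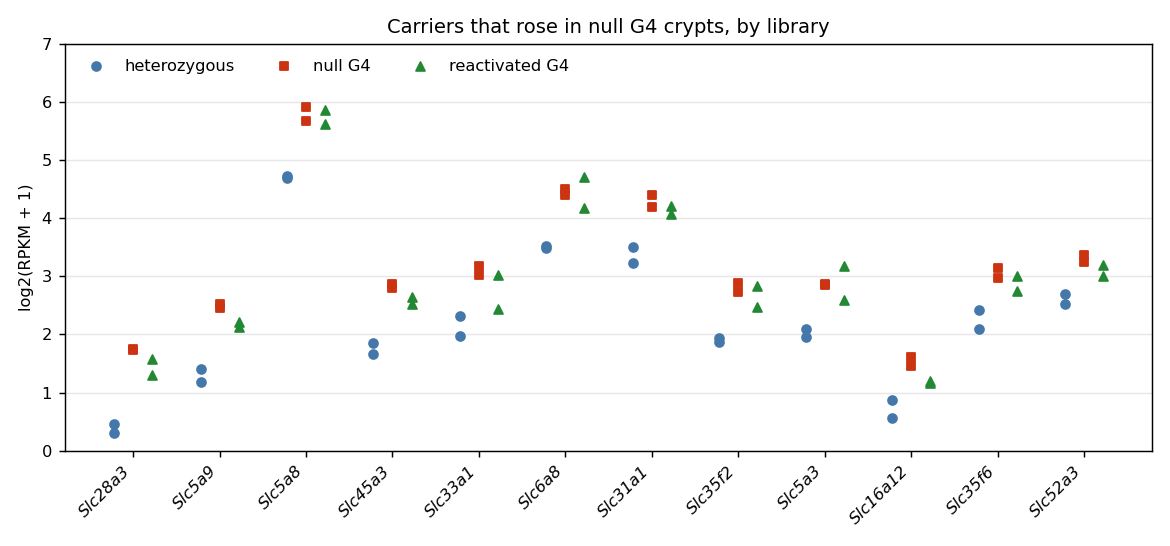
Levels of the 12 solute carriers that rose in null G4 crypts. The vertical axis is log2(RPKM + 1), each point is 1 library, and the members run from the largest difference (Slc28a3, 1.37) to the smallest (Slc52a3, 0.69). Both null G4 libraries (squares) lie above both heterozygous libraries (circles) for each member, and the libraries labelled reactivated (triangles) do so as well.

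Sugar and polyol carriers gave 3 of the 12 calls. Slc5a9, a sodium-coupled mannose and glucose carrier, was at 1.66 and 1.28 RPKM in heterozygous crypts, 4.48 and 4.73 in null G4, and 3.65 and 3.38 in the reactivated pair. Its null G4 libraries differed little and lay well above the heterozygous range, with a log2 difference of 1.19 (SE 0.15, n = 2 per group, limma adjusted p = 0.00436). Slc45a3, a proton-coupled sugar carrier, stood at 2.62 and 2.18 RPKM, 5.95 and 6.32, and 4.73 and 5.24 in the same order. It rose by 1.07 (SE 0.15, limma adjusted p = 0.00794), and in sorted cells it was barely present, at 0.0826 to 0.274 RPKM in heterozygous libraries. The Slc45a3 gene shares 481 exon bases on the same strand with Gm29103, a processed transcript that has no RPKM values of its own here. Slc5a3, the sodium-coupled carrier of the osmolyte myo-inositol, went from 3.27 and 2.86 RPKM to 6.3 and 6.25, with 5.05 and 8.06 in the reactivated pair, a rise of 0.84 (SE 0.20, limma adjusted p = 0.0499). Its gene shares 159 exon bases with Mrps6 on the same strand, and reads there cannot be assigned to one of them.

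Other sugar carriers of the class did not pass. Slc5a1, which takes up glucose with sodium, was at 18.6 and 27.3 RPKM in heterozygous crypts and 31.1 and 35.9 in null G4 (0.55, limma adjusted p = 0.112). Slc2a1, the facilitative glucose carrier of basal membranes, was at 9.95 and 15.8 against 15.3 and 16.8 RPKM, so its groups overlapped. Slc37a1, a glucose-6-phosphate antiporter, was at 28.5 RPKM in both heterozygous libraries and at 31.7 and 34.9 in null G4. Slc50a1, a sugar efflux carrier, was at 17.9 and 18.6 against 21 and 23.4 RPKM. Slc2a5, the fructose carrier, was among the lowest estimates, from 1.01 and 1.44 RPKM to 0.356 and 0.485 (-0.64, limma adjusted p = 0.0526). Slc2a2 was not a member.

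The class of nucleotide-sugar and acetyl-CoA carriers, set by family number, also gave 3 calls. Slc35f2 and Slc35f6 are in it by family number alone, which does not show that they carry nucleotide sugars. Slc33a1, which brings acetyl-CoA into the endoplasmic reticulum, was at 2.92 and 3.98 RPKM in heterozygous crypts and at 7.16 and 8.07 in null G4, a rise of 0.96 (SE 0.22, limma adjusted p = 0.0463). Its exons overlap those of an antisense transcript in the table, Gm26850, over 1136 bases. Slc35f2 was at 2.64 and 2.84 against 5.66 and 6.39 RPKM (0.91, SE 0.17, limma adjusted p = 0.027). Slc35f6 rose from 3.27 and 4.35 to 6.87 and 7.81 RPKM (0.80, limma adjusted p = 0.0446). In the reactivated pair Slc33a1 was at 7.13 and 4.41 RPKM, Slc35f2 at 6.09 and 4.58 and Slc35f6 at 7.05 and 5.73, so replicate 2 was the lower library in each.

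The 3 most abundant members of the class had positive estimates that did not pass. Slc35a1 was at 33.3 and 37.3 RPKM in heterozygous crypts and 46.1 and 51.1 in null G4 (0.45, limma adjusted p = 0.227). Slc35c1, the GDP-fucose carrier, was at 26.7 and 27.9 against 37.8 and 42 RPKM, and Slc35g1, which belongs to the same family, was at 15.7 and 22.1 against 29.1 and 35.5. Of the 23 members, 21 had a positive estimate on the deposited scale and 12 lay above the median of all genes.

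Slc5a8 was the most abundant of the members that rose. It was at 25.4 and 24.9 RPKM in heterozygous crypts, 50 and 59.3 in null G4, and 48.4 and 57 in the reactivated pair. The heterozygous libraries were nearly equal and the other 4 were all higher, with a null G4 difference of 1.09 (SE 0.22, limma adjusted p = 0.0334). Slc16a12, a creatine and monocarboxylate carrier, rose from 0.835 and 0.482 to 1.76 and 2.05 RPKM (0.81, limma adjusted p = 0.0347). Slc16a1, the proton-coupled carrier of lactate and butyrate, was at 25.4 and 46.4 RPKM in heterozygous crypts and at 36.7 and 43.8 in null G4, inside the heterozygous range. Slc13a2, a dicarboxylate carrier, was at 8.97 and 11.2 against 13.6 and 14 RPKM and did not pass. Slc16a9, a carnitine and monocarboxylate carrier, was at 1.72 and 3.61 against 0.995 and 1.53 (-0.65, limma adjusted p = 0.0846). Slc16a3 was not a member.

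Nucleoside and vitamin carriers held the largest difference of all members. Slc28a3, the concentrative nucleoside carrier, was at 0.368 and 0.241 RPKM in heterozygous crypts, 2.33 and 2.38 in null G4, and 1.47 and 2 in the reactivated pair. The null G4 difference was 1.37 (SE 0.16, limma adjusted p = 0.00353). Slc28a3 and Slc16a12 were below 1 RPKM in both heterozygous libraries, so they became members only through the other libraries and had to be higher there. The same held for 4 other members that did not pass, and 12 members were below 1 RPKM in both null G4 libraries. Slc52a3, a riboflavin carrier, rose from 4.78 and 5.52 to 8.54 and 9.28 RPKM (0.69, limma adjusted p = 0.0498). Slc23a2, which carries ascorbate, and Slc52a2, another riboflavin carrier, had null G4 levels within the heterozygous range. Slc28a2, a purine nucleoside carrier, was at 0.539 and 0.845 against 1.27 and 0.794 RPKM, and the groups overlapped.

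Among metal carriers, 1 of 23 passed. Slc31a1, the high-affinity copper importer, was at 8.35 and 10.3 RPKM in heterozygous crypts, 17.2 and 20 in null G4, and 17.6 and 15.8 in the reactivated pair. Its null G4 difference was 0.93 (SE 0.19, limma adjusted p = 0.0373). This class had the highest class median, 0.48, with 22 of 23 estimates positive and 15 above the median of all genes. With a term for sex the class median was 0.084, against 0.093 over all genes. Then 13 were positive, 11 lay above the median of all genes and 12 below, and the class no longer had the highest median. Slc40a1, ferroportin, which exports iron to the blood, was at 7.76 and 11 RPKM in heterozygous crypts, 16.5 and 18.8 in null G4, and 13.2 and 28.8 in the reactivated pair (0.87, limma adjusted p = 0.0857). Slc11a2, the importer of ferrous iron, was at 2.89 and 3.34 against 4.68 and 5.47 RPKM (limma adjusted p = 0.0604).

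The zinc importers were the most abundant metal carriers. Slc39a4, the apical zinc importer, was at 20.5 and 32.7 RPKM in heterozygous crypts and 35.3 and 41.6 in null G4 (0.55, limma adjusted p = 0.13). Slc39a1 and Slc39a11 had differences of 0.48 and 0.35, and neither passed. Slc30a10, a manganese exporter, was at 1.08 and 3.94 RPKM in heterozygous crypts and at 3.03 and 3.15 in null G4, inside the heterozygous range.

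Slc6a8, the creatine carrier, rose from 10.5 and 10.2 RPKM in heterozygous crypts to 20.1 and 21.7 in null G4, and was at 17 and 25.3 in the reactivated pair (0.95, SE 0.22, limma adjusted p = 0.047). It lies on chromosome X, as do 6 other members, among them Slc6a14, Slc25a5 and Slc35a2. All 7 were higher in both null G4 libraries, where 74.7% of all genes were, with a median difference of 0.73 against 0.36 over all genes, and the null G4 libraries held no Y-linked transcripts above 1 RPKM. Whether the X-linked levels follow sex or genotype cannot be told apart here. Slc6a6, the taurine carrier, was at 15.4 and 19.1 against 19.6 and 22.1 RPKM and did not pass. Slc18b1, a polyamine carrier of vesicles, was at 4.52 and 3.95 against 5.55 and 5.31 RPKM (0.30, limma adjusted p = 0.142).

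Amino acid and peptide carriers gave no call among 25 members, with a class median of 0.18. Slc6a14 was at 44.1 and 70 RPKM in heterozygous crypts, 116 and 134 in null G4, and 96.1 and 138 in the reactivated pair. The groups did not overlap, but the heterozygous libraries lay far apart, and the difference of 1.15 (SE 0.30) had a limma adjusted p of 0.0542. It was 1.48 without heterozygous replicate 2 and passed there, at a limma adjusted p of 0.0475. Slc38a2, a glutamine and alanine carrier, was at 15.1 and 16.7 against 25.4 and 26.7 RPKM (0.68, limma adjusted p = 0.0591). Slc1a5, another glutamine carrier, was at 28.5 and 24.3 against 24.5 and 25.6 RPKM, with overlapping groups. Slc7a5 and Slc3a2, the light and heavy chain of the leucine exchanger, had differences of 0.46 and 0.49 that did not pass. Slc15a1, the proton-coupled peptide carrier, was at 2.51 and 4.64 against 2.7 and 3.02 RPKM, and Slc7a11, the cystine carrier, was not a member.

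The acid-base, chloride and sodium carriers gave no call among 17, and 4 lay above the median of all genes. Slc12a2 was at 56.9 and 55.8 RPKM in heterozygous crypts and 73 and 77.7 in null G4 (0.41, limma adjusted p = 0.213). Slc26a3, the apical chloride-bicarbonate exchanger, was at 20.2 and 46.8 RPKM in heterozygous crypts and at 28.7 and 30.6 in null G4, so the null G4 pair fell between them. Slc26a2, the sulfate carrier, was at 28.7 and 39.7 against 31.3 and 32.9 RPKM, also inside the heterozygous range. Slc9a3, the apical sodium-proton exchanger, was at 10.2 and 19 RPKM in heterozygous crypts, 24.9 and 26.3 in null G4, and 21.4 and 31.5 in the reactivated pair (0.83, limma adjusted p = 0.0784). Slc9a2 was at 16.5 and 33.2 against 23 and 26.2 RPKM. Slc4a4 and Slc4a7, which move bicarbonate with sodium, had differences of 0.17 and 0.40, and Slc26a6, an anion exchanger, of -0.54, none of them past the threshold.

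No mitochondrial carrier passed among 36, and the class median of 0.33 was close to the 0.36 of all genes. Slc25a5 was at 193 and 267 RPKM in heterozygous crypts, 338 and 422 in null G4, and 351 and 319 in the reactivated pair (0.73, limma adjusted p = 0.0839). Slc25a3, the phosphate carrier, was at 36.7 and 42.6 against 53.3 and 59.9 RPKM, and Slc25a24, an ATP-magnesium and phosphate exchanger, at 23.2 and 35.2 against 40.2 and 45.2. The 36 estimates ran from -0.35 to 0.73.

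Fatty acid and choline carriers gave no call among 7. Slc44a4 was at 37.8 and 55.9 RPKM in heterozygous crypts and 70.9 and 82.6 in null G4 (0.72, limma adjusted p = 0.0745), and Slc44a1, a choline carrier, was at 17.8 and 21.3 against 32.6 and 36 (0.79, limma adjusted p = 0.0526). Slc44a3 was at 13.8 and 13.6 against 16 and 18.8 RPKM. Of the non-carriers with a Slc symbol, Slc9a3r1 was at 29.7 and 59.8 against 35.1 and 38.4 RPKM, Slc7a6os had a difference of 0.22 and Slc9a3r2 of -0.15.

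**Figure D2:**
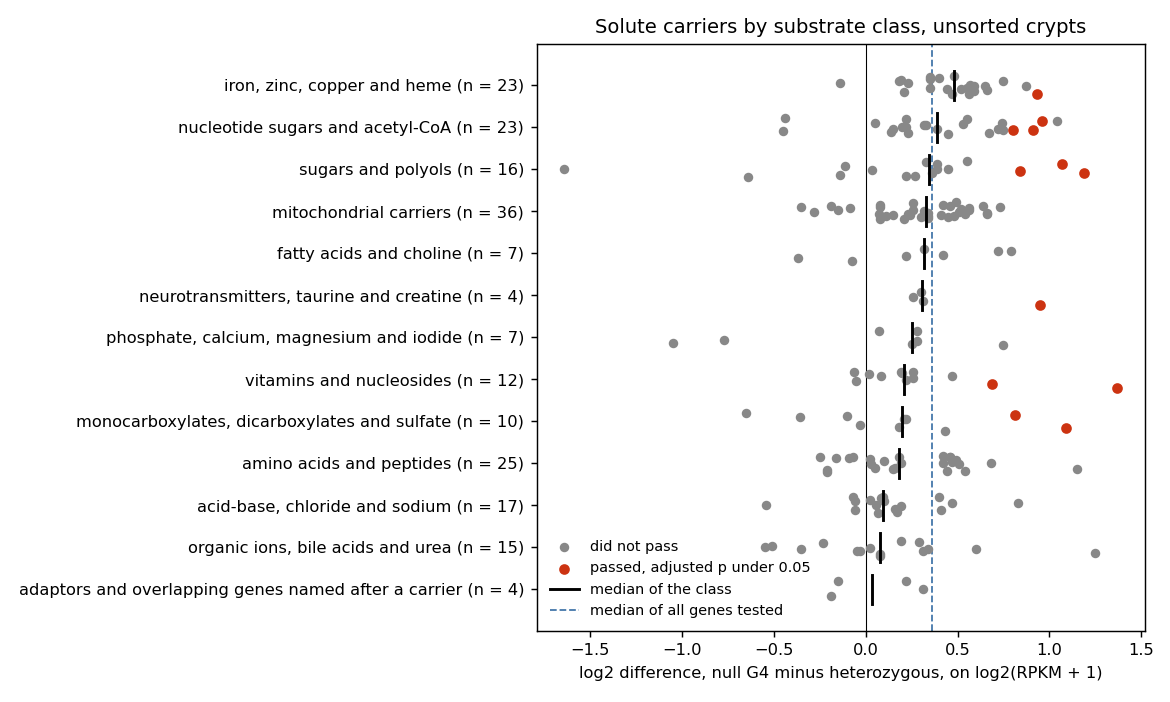
Differences of the 199 members between null G4 and heterozygous crypts, by substrate class. The horizontal axis is the log2 difference on log2(RPKM + 1), each point is 1 gene, bars are class medians and the dashed line is the median of all genes tested, 0.36. The metal carriers have the highest median (0.48), and the 12 members that passed lie at 0.69 or more.

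The lowest estimates belonged to carriers whose heterozygous libraries lay apart. Slc37a2 was at 11.7 and 36.7 RPKM in heterozygous crypts, 5.82 and 6.22 in null G4, and 5.29 and 9.14 in the reactivated pair. All 4 generation 4 libraries were below both heterozygous ones, but the difference of -1.64 (SE 0.45) had a limma adjusted p of 0.0555. It was -2.43 without heterozygous replicate 1, with a limma adjusted p of 0.00108, and -0.85 without heterozygous replicate 2, with 0.0958. Slc20a1, a sodium-phosphate cotransporter, was at 13.7 and 24.3 RPKM against 8.28 and 8.41, with 7.91 and 11 in the reactivated pair (-1.05, limma adjusted p = 0.0527). Slc8a1, a sodium-calcium exchanger, was at 7.36 and 10.8 against 4.79 and 4.88 RPKM (-0.77, limma adjusted p = 0.0538). Slc34a2, another sodium-phosphate cotransporter, was at 0.136 and 0.591 RPKM against 1.27 and 1.24, with 0.691 and 2.18 in the reactivated pair, and did not pass. Slc8b1, the mitochondrial sodium-calcium exchanger, was at 5.54 and 4.17 against 5.83 and 6.28 RPKM.

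Slc10a2 had the largest ratio between the heterozygous libraries of any member, 6.07, followed by Slc34a2 at 4.34 and Slc51a at 3.85. Slc10a2, the apical sodium-bile acid cotransporter, was at 2.39 and 14.5 RPKM in heterozygous crypts and at 5.63 and 6.6 in null G4. Slc51a and Slc51b form the basolateral exporter. Slc51a was at 3.4 and 13.1 RPKM in heterozygous crypts and at 4.78 and 5.58 in null G4, inside the heterozygous range, whereas Slc51b was at 4.31 and 10.9 against 15.7 and 20.5. The Slc51b difference of 1.25 (SE 0.34) had a limma adjusted p of 0.0547, and its gene shares 91 exon bases with Rasl12 on the other strand. Slc22a18 and Slc17a9, the most abundant members of the organic ion class, had differences of 0.29 and -0.23.

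In all, 38 members (19.1%) were at least 1.5 times higher in heterozygous replicate 2 than in replicate 1, where 7.45% of all genes tested were. The reverse held for 2 members (1.01%), where the background was 3.98%. Of the 38, 18 had both null G4 libraries inside the heterozygous range, 9 had both above it and 7 had both below it. The median absolute gap between the 2 heterozygous libraries over the members was 0.19 on the log2 scale, where it was 0.14 over all genes tested. It was 0.12 for the null G4 pair (all genes 0.13) and 0.32 for the reactivated pair (all genes 0.31). The summed level of 7 surface colonocyte markers was 1072 RPKM in heterozygous replicate 1 and 3640 in replicate 2, 1349 and 1662 in null G4, and 1472 and 1385 in the reactivated pair. Most of that sum was Car1, at 747 and 2869 RPKM in heterozygous crypts and 908 and 1140 in null G4. In null G4 some other markers of the list were near or above heterozygous replicate 2. Krt20 was at 54.1 and 148 against 143 and 167 RPKM, Car4 at 14 and 27.4 against 28.9 and 32.8, and Ceacam20 at 5.03 and 8.46 against 14.5 and 13.6. Aqp8 and Guca2a were below that library, at 10.9 and 59.8 against 16.6 and 18.4 RPKM and 236 and 516 against 230 and 282. So was Guca2b, at 5.57 and 11.2 against 7.39 and 7.83. Of the 7 markers, 2 were above both heterozygous libraries in null G4 (background 74.7%) and 0 below both. The 8 small-intestinal enterocyte markers summed to 96.8 and 289 RPKM in heterozygous crypts and to 76.2 and 83 in null G4, where 7 of the 8 were below both heterozygous libraries (background 6.5%). The 3 tuft cell markers were likewise all lower, with sums of 4.62 and 5.23 against 2.52 and 2.75 RPKM. Goblet markers went both ways, with sums of 10961 and 10439 against 9351 and 9928 RPKM. Of their 10 entries, in which Muc2 occurs more than once, 4 were below both heterozygous libraries (background 6.5%) and 2 above both (background 74.7%). Clca3 was at 770 and 724 against 131 and 133 RPKM, and Agr2 at 438 and 500 against 710 and 736. Markers of cycling cells, 6 of 6, were higher in both null G4 libraries (background 74.7%), with sums of 103 and 114 RPKM against 44.5 and 46.4 in heterozygous crypts and 87 and 50.6 in the reactivated pair. The part of these cell types in the carrier levels was not tested, and in bulk RNA fewer cells of a type and less RNA per cell cannot be told apart.

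**Figure D3:**
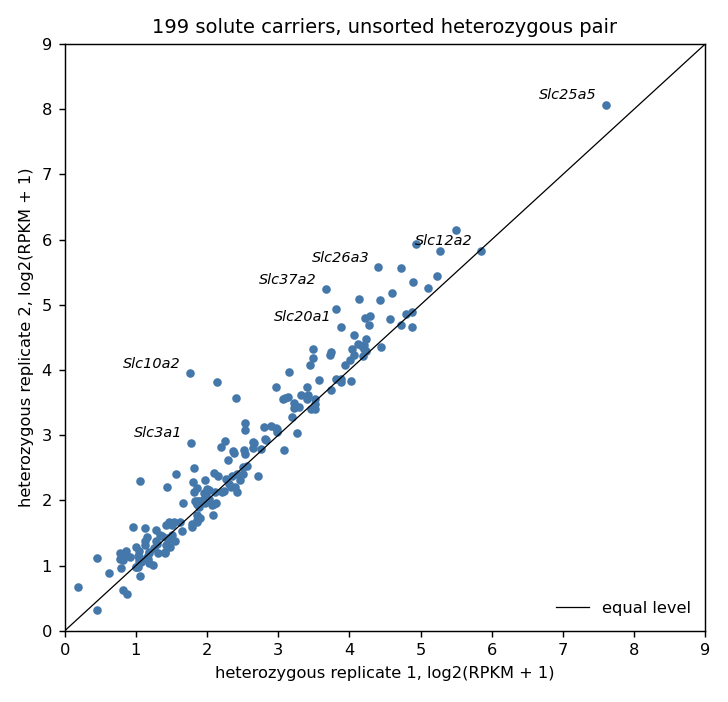
Levels of the 199 members in the 2 unsorted heterozygous libraries. Both axes are log2(RPKM + 1), each point is 1 gene and the line marks equal level. Points lie above the line more often than below it, among them Slc10a2 (2.39 and 14.5 RPKM), Slc37a2 (11.7 and 36.7) and Slc26a3 (20.2 and 46.8).

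The other transport and metabolism genes were read from lists of related proteins, without the members. None of 25 ABC transporters, 9 apical chloride and sodium channels, 9 potassium channels, 3 Slco transporters, 7 carbonic anhydrases or 14 butyrate oxidation enzymes passed, nor any of 15 amino acid response or 14 oxidative stress genes. Of 10 P-type ion pumps, 2 rose, where 4.97% of all genes tested rose and 0.576% fell. Atp12a, the colonic proton-potassium pump, was at 4.83 and 2.67 RPKM in heterozygous crypts, 33.8 and 36.7 in null G4, and 19.5 and 48.5 in the reactivated pair (2.97, SE 0.39, limma adjusted p = 0.00621). Atp7a, which pumps out the copper that Slc31a1 brings in, rose from 2.51 and 2.73 to 5.04 and 5.3 RPKM (0.77, limma adjusted p = 0.0263).

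Aqp4 rose among 4 aquaporins (1.20, limma adjusted p = 0.0329), and Atp6v1a rose among 15 genes of the vacuolar proton pump (0.80, limma adjusted p = 0.0498). Of 15 glycolysis genes, 5 rose (Hk1, Hk2, Pfkp, Pgam1 and Pgk1) and Ldhb fell. For each of these lists the background was 4.97% higher and 0.576% lower. Hk2, the hexokinase that traps glucose after its uptake, went from 12.9 and 14.4 to 33.6 and 35.8 RPKM (1.29, limma adjusted p = 0.0116). The glycolysis list's median difference was 0.76, against 0.36 over all genes tested. These lists are given on the deposited scale, without a term for sex.

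**Figure D4:**
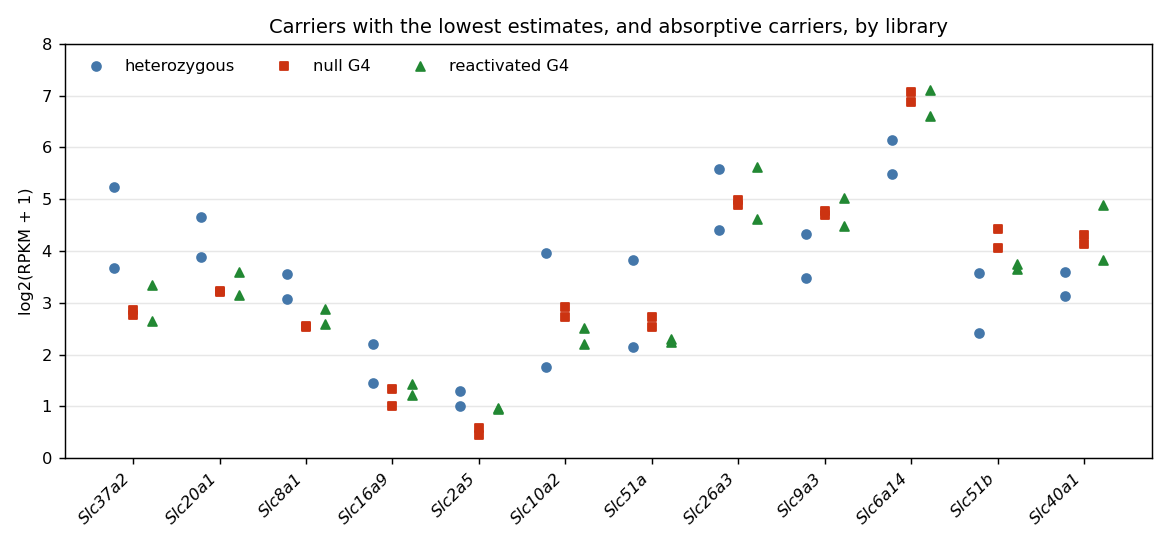
Levels of the 5 members with the lowest estimates (Slc37a2 to Slc2a5) and of 7 absorptive carriers in the unsorted libraries. The vertical axis is log2(RPKM + 1) and each point is 1 library. The heterozygous libraries (circles) of Slc37a2, Slc10a2 and Slc51a lie far apart, while the null G4 libraries (squares) of each gene lie close together.

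The next comparisons set the crypts labelled reactivated against null G4 and against heterozygous crypts, and they share libraries with the first. Against null G4, 0 of 199 members passed in either direction, where 0.0174% of all genes rose and 0.00872% fell. At an unadjusted p under 0.05 by limma there was 1 member (background 2.7%), Slc2a5, at 0.919 and 0.945 RPKM against 0.356 and 0.485 (0.45, limma adjusted p = 0.833). The members of next smallest p were Slc10a3 (-0.38), Slc16a12 (-0.36), Slc5a9 (-0.31), Slc28a3 (-0.30) and Slc45a3 (-0.25), all at a limma adjusted p of 0.833. The median over the members was -0.093 and over all genes -0.14. Without replicate 1 of the reactivated pair, 2 members fell.

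Against heterozygous crypts, 3 members rose (1.51%, background 1.13%) and 0 fell (background 0.148%). They were Slc28a3 (1.06, SE 0.16, limma adjusted p = 0.018), Slc5a9 (0.88, SE 0.15, limma adjusted p = 0.0289) and Slc45a3 (0.82, SE 0.15, limma adjusted p = 0.0418). Slc28a3 entered the members only through generation 4 libraries, so it had to be higher there. Slc5a8, at 1.03, and Slc6a8, at 0.94, had limma adjusted p of 0.0754 and 0.11. The median was 0.17 over the members and 0.22 over all genes. Without replicate 2 of the reactivated pair 33 members rose, without heterozygous replicate 2 the number was 1, and without heterozygous replicate 1 it was 2 while 4 fell.

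In sorted cells 140 of the 199 members reached 1 RPKM in at least 3 of 6 libraries and were tested, and 47 were under 1 RPKM in all 3 heterozygous libraries. None of the 140 passed between null G3 and heterozygous libraries, and 0 of 8734 genes did. At an unadjusted p under 0.05 by limma, 3 members were lower (2.14%), where the background was 1.63%. They were Slc9a3r2 (-1.35), Slc17a9, a vesicular nucleotide carrier (-0.93), and Slc37a1 (-1.07), each at a limma adjusted p of 0.481. Slc31a2, a copper carrier of endosomes (-0.58), Slc48a1, a heme carrier (-0.98), and Slc4a2, a chloride-bicarbonate exchanger (-0.71), came next at the same adjusted p. The median over the members was -0.33 and over all genes -0.46. It turned to 0.12 with quantile normalization and to 0.17 with median scaling.

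Replicate 1 of the libraries labelled null G3 stood apart from the other 5 sorted libraries. Of the 199 members, 60 were above all 5, 107 below all 5 and 32 within their range. Over the 140 tested members, 41 were above (29.3%), where 8.51% of all genes tested were, and 74 were below (52.9%), where the background was 79.2%. Slc5a1 was at 395 RPKM there and at 16.7 to 21.9 in the others. Slc15a1 was at 75.3 RPKM against 0.266 to 0.646, and Slc43a2, a facilitative carrier of neutral amino acids, was at 39.7 against 0.454 to 0.693. Slc5a1 and Slc15a1 are apical carriers of absorptive cells of the small intestine.

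Both subunits of the bile acid exporter were also high in that library. Slc51a held 24.9 RPKM and Slc51b held 42, where the ranges over the remaining 5 were 0.605 to 2.53 and 2.28 to 5.79. Slc10a2, at 0.217 RPKM, was within its range. Slc16a10, a carrier of aromatic amino acids, was at 27.3 RPKM against 1.1 to 1.92, Slc6a8 at 40.9 against 1.8 to 4.97, and Slc9a3r1 at 69.4 against 6.41 to 12.9. Slc12a2 was low, at 3.41 RPKM against 89.6 to 121. Slc35a1 was at 1.77 RPKM against 25.3 to 56.3, Slc6a14 at 0.169 against 7.1 to 18.6, and Slc1a5 at 0.34 against 5.89 to 8.46.

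Of the 159 Slc genes under the level rule, 18 reached 1 RPKM in that library and 0 to 4 did in each other sorted library. The summed level of 8 small-intestinal enterocyte markers was 5510 RPKM there and 86.4 to 132 in the other 5, and it ran from 76.2 to 289 in unsorted libraries. Stem cell markers of the Lgr5 type summed to 3.21 RPKM against 36.1 to 57.7, and cycling markers to 7.76 against 97 to 127. The part of these cell types in the null G3 estimates was not tested. Without that library 0 of 140 members passed and 12 had an unadjusted p under 0.05 by limma, all lower (8.57%, against 2.66% of all genes in either direction). Slc9a3r2 was then at -0.94, Slc17a9 at -0.51 and Slc37a1 at -0.69.

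**Figure D5:**
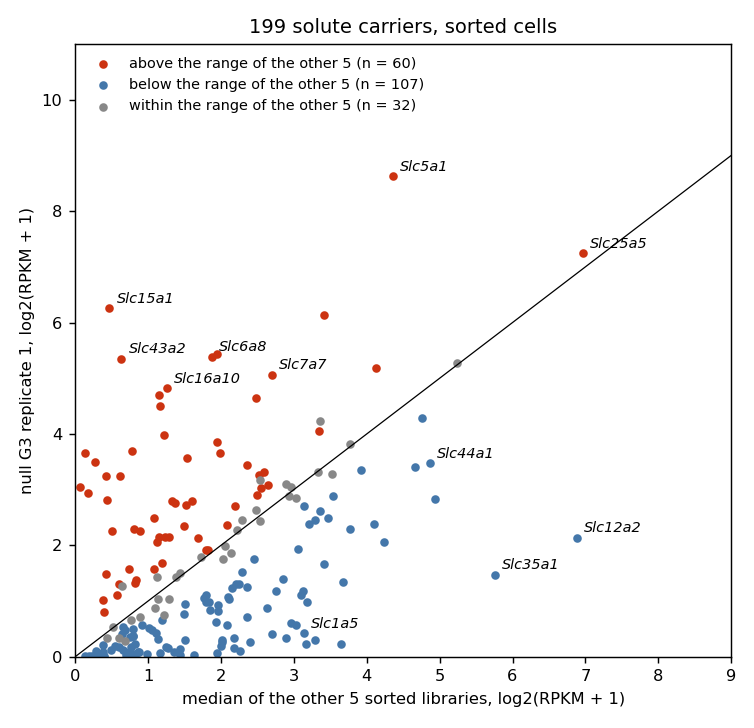
Levels of the 199 members in replicate 1 of the libraries labelled null G3 and in the other 5 sorted libraries. The horizontal axis is the median of the other 5 libraries and the vertical axis is replicate 1, both as log2(RPKM + 1), and the line marks equal level. Slc5a1 (395 RPKM) and Slc15a1 (75.3) lie far above the line and Slc12a2 (3.41) far below it.

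The last comparison asked whether the null effect differed between unsorted generation 4 and sorted generation 3 cells, with an interaction term. None of the 199 members passed, where 0.303% of all 11862 genes were higher and 0 lower. At an unadjusted p under 0.05 by limma, 38 members (19.1%) differed, against 26.1% of all genes. With a term for sex these were 11 members (5.53%) and 4.59% of all genes. The smallest p belonged to Slc45a3 (1.16, limma adjusted p = 0.0888), followed by Slc16a12 (1.03, limma adjusted p = 0.118), Slc28a3 (1.47, limma adjusted p = 0.15), Slc31a2 (1.10), Slc44a4 (1.42) and Slc33a1 (1.06), the last 3 at 0.19. Without replicate 1 of the null G3 libraries 5 members passed, and without replicate 3 it was 34, all higher in the unsorted contrast. Of all genes, 36.4% and 57.7% were then at an unadjusted p under 0.05 by limma. Of the members, 34.7% and 41.7% were. Cell population, generation and normalization differ together in this term and cannot be told apart.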

How the data were processed

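RNA was measured in 12 libraries of the large intestine of mice aged 3 months, made with the TruSeq RNA kit per the labels' protocols. STAR 2.3.0e and mm10 are listed, without a role, per the submitters' processing notes. For counting, the tool, annotation and use of strand are not stated there or in the labels. The authors deposited RPKM values in 1 table, with 25686 genes listed for sorted and 27658 for unsorted libraries, and 0 columns were left out. No test on counts was run. The whole table was tested with limma 3.58.1 in R 4.3.3 on log2(RPKM + 1), with a mean trend and Benjamini-Hochberg adjustment over all genes at 1 RPKM in 2 or more of 6 unsorted, 3 or more of 6 sorted, or 2 or more of 12 libraries for the interaction, and a threshold of 0.05. A fold change on this scale understates the change of low genes. The unsorted fit held all 3 groups, which share 1 estimate of spread. In unsorted libraries 81.7% to 83.6% of low values were within 0.05 reads of a whole number, up to 5 reads, and gave the implied depth, but whole reads were not recovered for nearly all genes and no count model was used. Coordinates, exon lengths and overlaps came from GENCODE M21 (GRCm38, which is mm10), to which 28200 gene identifiers matched, and promoter sequences from RefSeq. The fits were tested on simulated data.

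The members and the gene lists were chosen with earlier results of these data known. Members named are those that passed in null G4, the 6 of smallest p where fewer than 3 passed, the 3 most abundant of each class, and carriers of known colonic function. The members with the lowest estimates in null G4, Slc35f6, Slc52a3, and further members that did not pass were named after their values were seen. Replicate numbers did not pair the libraries. Correlations of deviations between same-numbered libraries were 0.219 (heterozygous and null G4), -0.069 and -0.124 in unsorted, and 0.053, -0.03 and -0.19 in sorted cells. Alternatives were a pseudocount of 0.1, no filter, other scalings, no trend, a replicate block, a term for sex and leaving out each library. Scaling to equal summed RPKM without mitochondrial ribosomal RNA was chosen after seeing the data.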

Additional observations from a re-analysis of the deposited data

How the results depend on the processing

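For null G4 against heterozygous crypts, where 12 members rose and 0 fell, the counts were 3 and 2 with quantile normalization, 2 and 5 with median scaling, 7 and 1 with equal summed RPKM outside mitochondrial ribosomal RNA, 2 and 0 with a term for sex, and 0 and 0 with no filter on low values. They ran from 2 to 66 higher and 0 to 9 lower when 1 library was left out. For the reactivated pair against heterozygous crypts, where 3 rose, the number was 1 with quantile normalization, 0 with median scaling and 0 with no filter, and 1 to 33 rose and 0 to 4 fell when 1 library was left out. Against null G4, 0 to 2 fell when 1 library was left out. The interaction gave 0 to 34 members higher. With a replicate block, which rests on numbers that do not pair the libraries, 16 members rose and 4 fell in null G4, 11 of them among the 12, and 4 rose and 1 fell in the reactivated pair against heterozygous crypts. The block changed no other count of members that passed. Members at an unadjusted p under 0.05 by limma did change with it, from 3 to 10 in sorted cells and from 38 to 26 in the interaction. The 14 alternatives of the null G4 comparison were read for 22 members, the 12 that passed and others of large estimate in either direction. Of their 308 values, 0 changed direction, 84 no longer passed and 31 newly passed. These 22 were chosen for their estimates, so the 0 says little of the other members. Over all 199 members, 159 estimates were positive and 40 negative on the deposited scale, and 78 and 121 with median scaling. The share of all genes at an unadjusted p under 0.05 by limma also changed with these settings in every comparison. The cause of these changes was not tested. The median over the members in null G4 was -0.084 with quantile normalization, -0.096 with median scaling and 0.033 with a term for sex. With 2 libraries in a group, leaving out 1 leaves a lone library that is assumed to vary like the other groups. In the unsorted libraries 1 RPKM was 347 to 477 reads at the members' median length, and the part of depth was not tested.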
